A study of Mus musculus with 15 samples.

Results

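Cohesin is a ring that holds sister chromatids together and folds chromatin into loops. The genes described here are those of its 3 core subunits (Smc1a, Smc3 and Rad21), its loader (Nipbl and Mau2), its release factor and the partners of that factor (Wapal, Pds5a and Pds5b), the acetyltransferase that makes cohesion during S phase (Esco2), and the DNA-binding protein at which cohesin loops are anchored (Ctcf). They were chosen by name, with the STAG paralogs left out, and are 10 of the 23412 genes counted. All 10 passed the filter on low counts.

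RNA-seq of polyadenylated RNA was performed on v6.5 cells, a male mouse embryonic stem cell (mESC) line grown on gelatin. There were 5 conditions with 3 libraries each. Wild-type cells, Stag1-/- cells and Stag2-/- cells received siGLO, a control for transfection, and wild-type and Stag2-/- cells also received siStag1, an siRNA pool against Stag1. Each siRNA was given at 50 nM for 48 hours. Each knockout was a CRISPR line derived from 1 clone, so a knockout and a property of its clone cannot be told apart. STAG1 and STAG2 are the alternative subunits that bind the outside of the ring, and the Stag2-/- siStag1 condition combines the Stag2 deletion with the knockdown of Stag1. Nothing in the labels says that replicates were separate derivations, so p-values measure the spread between these libraries.

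SMC1A and SMC3 form the arms of the ring and RAD21 closes it. NIPBL and MAU2 load cohesin and NIPBL also drives loop extrusion. WAPL opens the ring with the help of PDS5A or PDS5B, which also bind cohesin that has been acetylated by ESCO1 or ESCO2 and thereby protected from release. CTCF stops extruding cohesin and so sets where loops end. In mESCs, which divide fast and spend much of their cycle in S phase, all of these genes are active.

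Libraries held 14982560 to 19070126 counts in genes, and normalized counts given here are scaled to a common depth of 17409359. Stag1 had 2288, 2137 and 2012 normalized counts in wild-type siGLO and 517.5, 456.2 and 353.1 in wild-type siStag1, while Stag2 fell from 2329, 2334 and 2329 in wild-type siGLO to 663.4, 739.2 and 674.7 in Stag2-/- siGLO. In Stag1-/- siGLO the Stag1 counts of 1826, 2368 and 1875 overlapped those of wild-type cells, so they do not check the label of that clone. Per the study's methods, the clone sequenced carries a homozygous in-frame deletion within Stag1, which the study describes as sparing the transcript while the protein was not detected. The 8 stem cell markers used to check the line had a summed level of 102000 to 107000 in wild-type siGLO, 94800 to 101900 in wild-type siStag1, 83920 to 97040 in Stag1-/- siGLO, 79420 to 92960 in Stag2-/- siGLO and 59130 to 72900 in Stag2-/- siStag1, and none was at 0. In the last condition 7 of the 8 fell, with log2 fold changes of -2.64 for Esrrb, -2.15 for Klf4, -1.74 for Zfp42, -1.61 for Nanog, -1.05 for Dppa5a, -0.49 for Sox2 and -0.31 for Pou5f1, and Tdgf1 stood at 0.14. The summed level of 4 endoderm markers (Gata6, Gata4, Sox17 and Foxa2) was 1668 to 1888 in wild-type siGLO and 1663 to 1874 in wild-type siStag1, against 176.3 to 279.5 in Stag1-/- siGLO, 249.2 to 476.1 in Stag2-/- siGLO and 250.7 to 414.0 in Stag2-/- siStag1, and none was at 0 in any condition. The summed level of 4 neural markers (Pax6, Nes, Sox1 and Tubb3) was 1905 to 2700 in wild-type siGLO, 1912 to 2334 in wild-type siStag1, 2136 to 2493 in Stag1-/- siGLO, 2929 to 4526 in Stag2-/- siGLO and 3329 to 5657 in Stag2-/- siStag1. The 4 did not move as one: in the last 2 conditions Pax6 rose by 2.71 and 3.48 and Nes by 1.16 and 1.74 on the log2 scale, Tubb3 stood at 0.44 (called) and 0.38 (not called) and Sox1 at 0.58 and -0.79 (neither called), and in Stag1-/- siGLO Sox1 alone was called, at -2.91 (adjusted p = 0.00400). The sum of 4 mesoderm and streak markers (T, Mixl1, Eomes and Kdr) was 249.6 to 348.4 in wild-type siGLO, 258.7 to 327.4 in wild-type siStag1, 246.8 to 363.2 in Stag1-/- siGLO, 189.0 to 496.8 in Stag2-/- siGLO and 135.2 to 173.5 in Stag2-/- siStag1. In the last 2 T was called as higher, at 3.80 and 2.02, and Eomes as lower, at -0.87 and -1.44, and Kdr was called as lower in the last, at -2.05. These stem cell, endoderm, neural and mesoderm markers therefore separated some of the same conditions as results given here, their part in those results was not tested, and in bulk RNA fewer cells of a type and less RNA per cell cannot be told apart.

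Across the 5 conditions the cohesin genes moved little, with 1 clear exception. Esco2 fell to 79.4% of wild-type siGLO in Stag1-/- siGLO, to 75.2% in Stag2-/- siGLO and to 64.8% in Stag2-/- siStag1. Mau2 fell to 85.7% and 85.8% in the single knockouts, and stood at 100.5% in Stag2-/- siStag1. Nipbl rose to 118.7% and Pds5b to 122.7% in Stag2-/- siStag1. With edgeR and all libraries, no ring subunit passed the test in any comparison, nor did Pds5a, while DESeq2 called Rad21 in the test over the 5 conditions (adjusted p = 0.0560).

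Against wild-type siGLO, edgeR's quasi-likelihood test called 2 of the 10 genes in Stag1-/- siGLO at an adjusted p under 0.1, where 20.0% of all 14508 genes tested were called, 10.1% as higher and 9.93% as lower. It called 2 of 10 in Stag2-/- siGLO, where 28.3% of all genes were called, 13.9% as higher and 14.4% as lower. It called 3 of 10 in Stag2-/- siStag1, where 43.9% of all genes were called, 22.6% as higher and 21.3% as lower. The shares of these 10 genes thus lay at or below those of all genes. The median absolute log2 fold change of the 10 genes was 0.085 in Stag1-/- siGLO, 0.074 in Stag2-/- siGLO and 0.10 in Stag2-/- siStag1, beside 0.21, 0.25 and 0.31 over all genes tested. The replicates of these genes were also close, with a median biological coefficient of variation of 0.0839 against 0.130 over all genes. By mean count in wild-type siGLO, however, the 10 genes lay above 79.7% (Mau2) to 97.8% (Rad21) of all genes tested. Neither comparison was made with genes of similar level, so small changes and close replicates are not shown to be particular to these genes.

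In wild-type siStag1, where Stag1 was lowered and Stag2 was intact, edgeR called 0 of the 10 genes, and 0.248% of all genes. At an unadjusted p under 0.05 edgeR had 1 of the 10 genes and 922 of the 14508, and DESeq2 called 0 of the 10. The median absolute log2 fold change was 0.054 for the 10 genes and 0.11 for all genes. A test of any difference among the 5 conditions called 4 of the 10 genes with edgeR, with 50.7% of all genes called. DESeq2 called 5 of the 10, the same 4 and Rad21, and 7856 of all genes. The edgeR adjusted p-values were 0.00279 for Esco2, 0.0392 for Mau2, 0.0539 for Nipbl and 0.0652 for Pds5b. The call for Nipbl was lost without Stag2-/- siStag1 replicate 2 (adjusted p = 0.184) or 3 (0.173), and that for Pds5b without wild-type siStag1 replicate 1 (0.109) or 3 (0.136) or Stag2-/- siStag1 replicate 2 (0.108) or 3 (0.248).

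**Figure D1:**
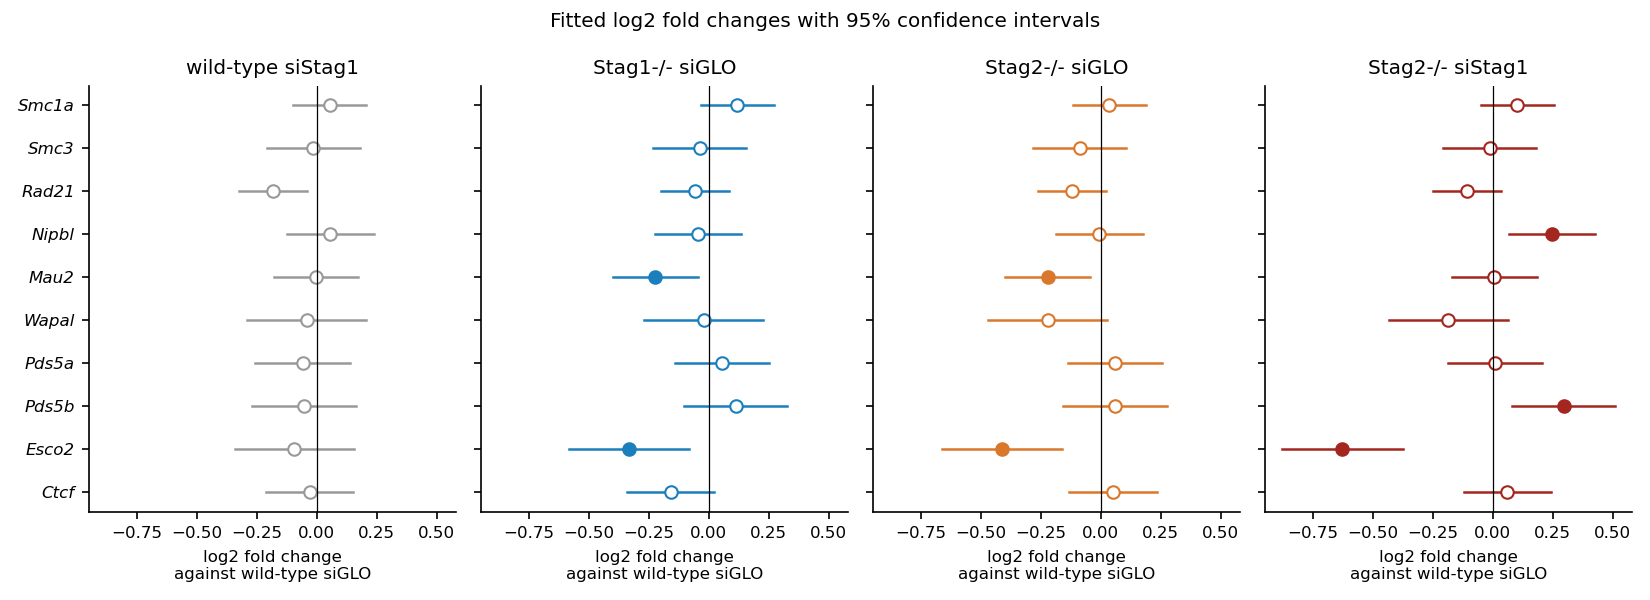
Fitted log2 fold changes (x axis) of the 10 genes (y axis) against wild-type siGLO in the other 4 conditions, 1 panel each, with 95% confidence intervals as lines and 3 libraries per condition. Filled points have an adjusted p under 0.1 with edgeR: Esco2 and Mau2 in each single knockout, and Esco2, Nipbl and Pds5b in Stag2-/- siStag1, and none in wild-type siStag1.

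The ring subunits varied little between conditions. Smc3 (chromosome 19, 53600398 to 53645833), an arm of the ring, had the smallest spread of the 10 genes, with a standard deviation of its 5 condition means of 0.035 on the log2 scale, followed by Smc1a and Pds5a at 0.048 each and Rad21 at 0.069. It had 7019, 7060 and 6503 normalized counts in wild-type siGLO and 7308, 6449 and 6640 in Stag2-/- siStag1. These ranges overlap, and the log2 fold change was -0.01 with a 95% confidence interval of -0.21 to 0.18.

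Smc1a (chromosome X, 152016428 to 152062694), the other arm, had 3695, 3663 and 3684 normalized counts in wild-type siGLO. The 3 libraries of Stag2-/- siStag1 held 3777, 4007 and 4072, and those of Stag1-/- siGLO 4092, 4216 and 3693. The groups did not overlap in the first case, nor against wild-type siStag1 with 3776, 3856 and 3836, yet the log2 fold changes were small, 0.10 (95% confidence interval -0.05 to 0.26) and 0.05 (-0.10 to 0.21). No comparison of Smc1a passed the test, and the lowest adjusted p against wild-type siGLO was 0.285.

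Rad21 (chromosome 15, 51962240 to 51991747), the kleisin that closes the ring and is cut at anaphase, had 8150, 7677 and 7443 normalized counts in wild-type siGLO. Its counts were 6895, 6756 and 6835 in wild-type siStag1, all below those of wild-type siGLO. The log2 fold change was -0.18 (SE 0.067), with an adjusted p of 0.55 by edgeR, and the 6 other ways of fitting it gave adjusted p-values of 0.171 to 0.877. Rad21 was the 1 gene of the 10 with an unadjusted p under 0.05 in that comparison. In Stag2-/- siGLO its counts of 7396, 7030 and 6971 were again all below those of wild-type siGLO, by a log2 fold change of -0.12 (95% confidence interval -0.26 to 0.02), and in Stag2-/- siStag1, with 7164, 6951 and 7494, the ranges overlapped.

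The ratios between the ring subunits varied little between conditions. Per kb of exon, Smc1a stood to Smc3 as 0.516 ± 0.025 (SD, n = 3) in wild-type siGLO, and the means in the other conditions were 0.542 to 0.578. Rad21 stood to Smc3 as 1.48 ± 0.051 in wild-type siGLO and as 1.32 ± 0.079 in wild-type siStag1, where the 3 ratios of 1.28, 1.27 and 1.41 were below the 3 of wild-type siGLO, the lowest of which was 1.424.

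**Figure D2:**
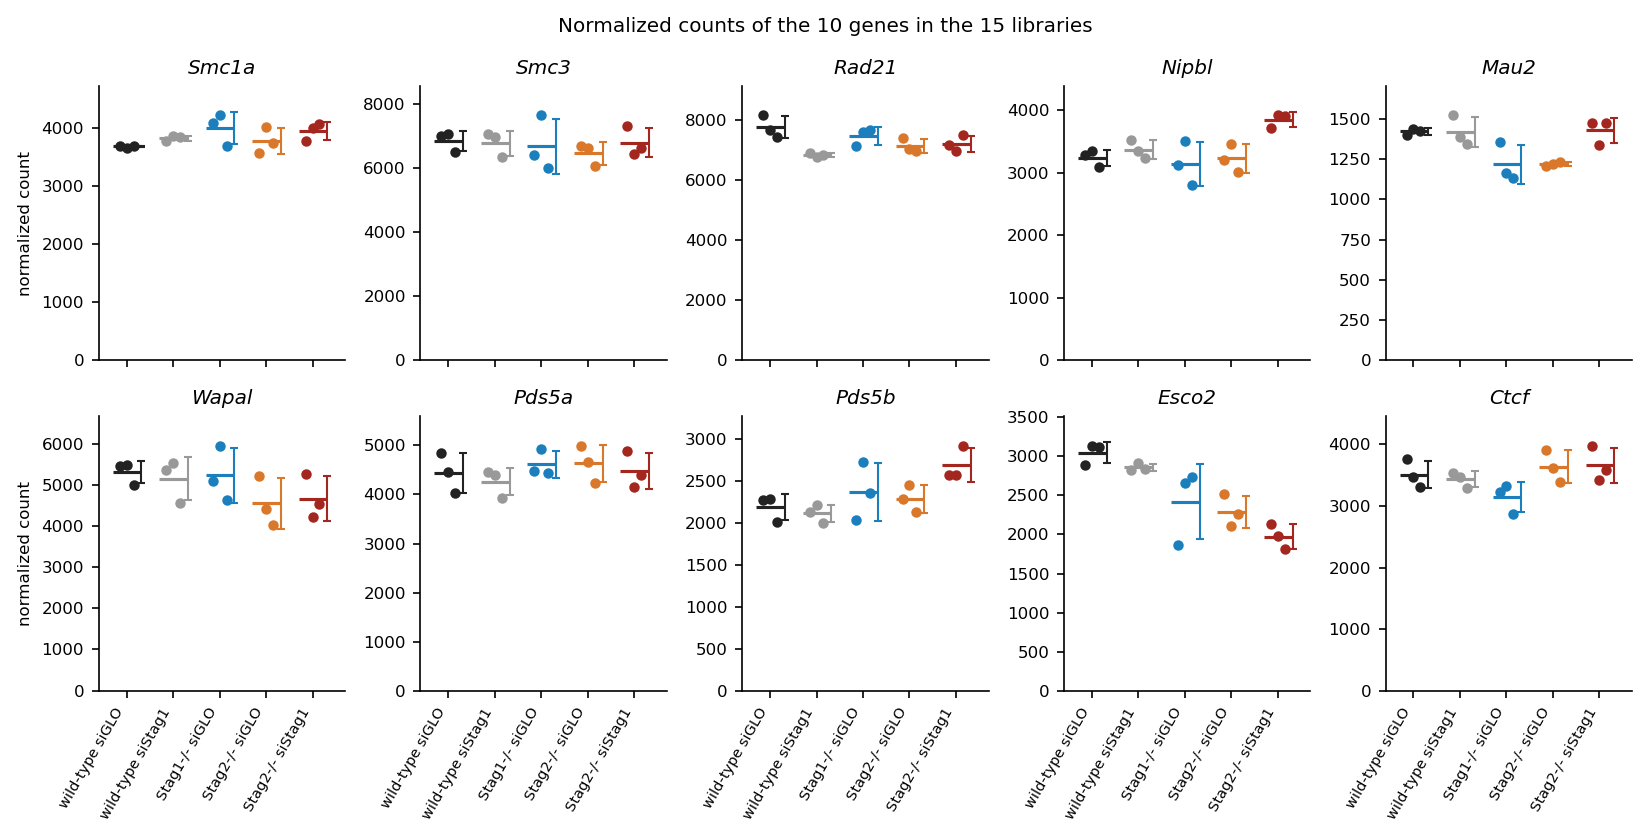
Normalized counts (y axis, from 0) of the 10 genes in each of the 15 libraries, 1 panel per gene and 1 column of 3 points per condition, with the mean as a line and the SD as an error bar. Esco2 is lower in all 9 libraries of the knockout genotypes than in all 3 of wild-type siGLO, Nipbl is highest in the 3 libraries of Stag2-/- siStag1, and Smc3, Pds5a and Ctcf overlap wild-type siGLO in Stag2-/- siStag1.

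Of the loader genes, Nipbl rose in the dual depletion and Mau2 fell in the single knockouts. Nipbl (chromosome 15, 8290617 to 8444463), the larger subunit of the loader, had 3281, 3340 and 3090 normalized counts in wild-type siGLO and 3709, 3913 and 3907 in Stag2-/- siStag1. The groups did not overlap, and the log2 fold change was 0.25 (SE 0.085, adjusted p = 0.0322). In Stag1-/- siGLO (3115, 3501 and 2800) and in Stag2-/- siGLO (3207, 3459 and 3010) the ranges overlapped those of wild-type siGLO, with log2 fold changes of -0.04 and -0.01. The call in Stag2-/- siStag1 was lost without wild-type siGLO replicate 3 (adjusted p = 0.110) and kept without each of the other 14 libraries in turn. Genes that start within 5 Mb of Nipbl (n = 44) gave a median of -0.06 on the log2 scale in that comparison.

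Mau2 (chromosome 8, 70016123 to 70042734), which binds the end of NIPBL, had 1398, 1440 and 1428 normalized counts in wild-type siGLO. It had 1358, 1165 and 1130 in Stag1-/- siGLO and 1210, 1217 and 1231 in Stag2-/- siGLO, below every library of wild-type siGLO in both clones. The log2 fold change was -0.22 in each, with SEs of 0.084 and 0.084 and adjusted p-values of 0.0885 and 0.0727. In Stag2-/- siStag1 the counts of 1472, 1340 and 1474 spanned those of wild-type siGLO, with a log2 fold change of 0.01 (95% confidence interval -0.17 to 0.18). The 2 calls lay close to the threshold. In Stag1-/- siGLO the call was lost, at adjusted p-values of 0.101 to 0.234, in 11 of the 15 fits that left out 1 library: wild-type siGLO replicates 1, 2 and 3, Stag1-/- siGLO replicates 2 and 3, and replicates 2 and 3 of each of the remaining conditions. In Stag2-/- siGLO it was lost without wild-type siGLO replicate 2 (0.179) or 3 (0.145) or Stag2-/- siGLO replicate 1 (0.137), 2 (0.149) or 3 (0.128).

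The fall of Mau2 in the knockout clones was of about the size seen for the rest of its chromosome. Over the other 758 genes tested on chromosome 8, the log2 fold changes had a median of -0.19 in Stag1-/- siGLO, -0.21 in Stag2-/- siGLO and -0.23 in Stag2-/- siStag1, and 0.0014 in wild-type siStag1, beside -0.01, 0.01, 0.01 and -0.0017 over all genes tested. Within 5 Mb of the start of Mau2, 125 genes had medians of -0.13, -0.16 and -0.18 in the 3 knockout conditions. The part of this chromosome-wide shift in the result for Mau2 was not tested. Mau2 stood 0.19 above the median of its neighbours in Stag2-/- siStag1.

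Ctcf (chromosome 8, 105636568 to 105682922), which lies on the same chromosome, had 3755, 3466 and 3309 normalized counts in wild-type siGLO, 3232, 3327 and 2876 in Stag1-/- siGLO, and 3914, 3620 and 3382 in Stag2-/- siGLO. The first 2 groups overlapped, at -0.16 on the log2 scale (adjusted p = 0.251, SE 0.086). With the replicate number as a block, which pairs libraries of the same number in this comparison, the log2 fold change was -0.16 and the adjusted p 0.0839, with 30.6% of all genes called. The 6 alternative fits gave 0.0839 to 0.408. For the 99 genes within 5 Mb of Ctcf, the median was -0.20 in Stag1-/- siGLO and -0.19 in Stag2-/- siGLO on the log2 scale. Ctcf was thus close to its neighbours in the first clone and 0.24 above them in the second, where its own log2 fold change was 0.05 (95% confidence interval -0.13 to 0.23). Of the Ctcf exons, 114 bp are shared on the opposite strand with Agrp, and whether the counting used strand is not given in the sources used here.

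**Figure D3:**
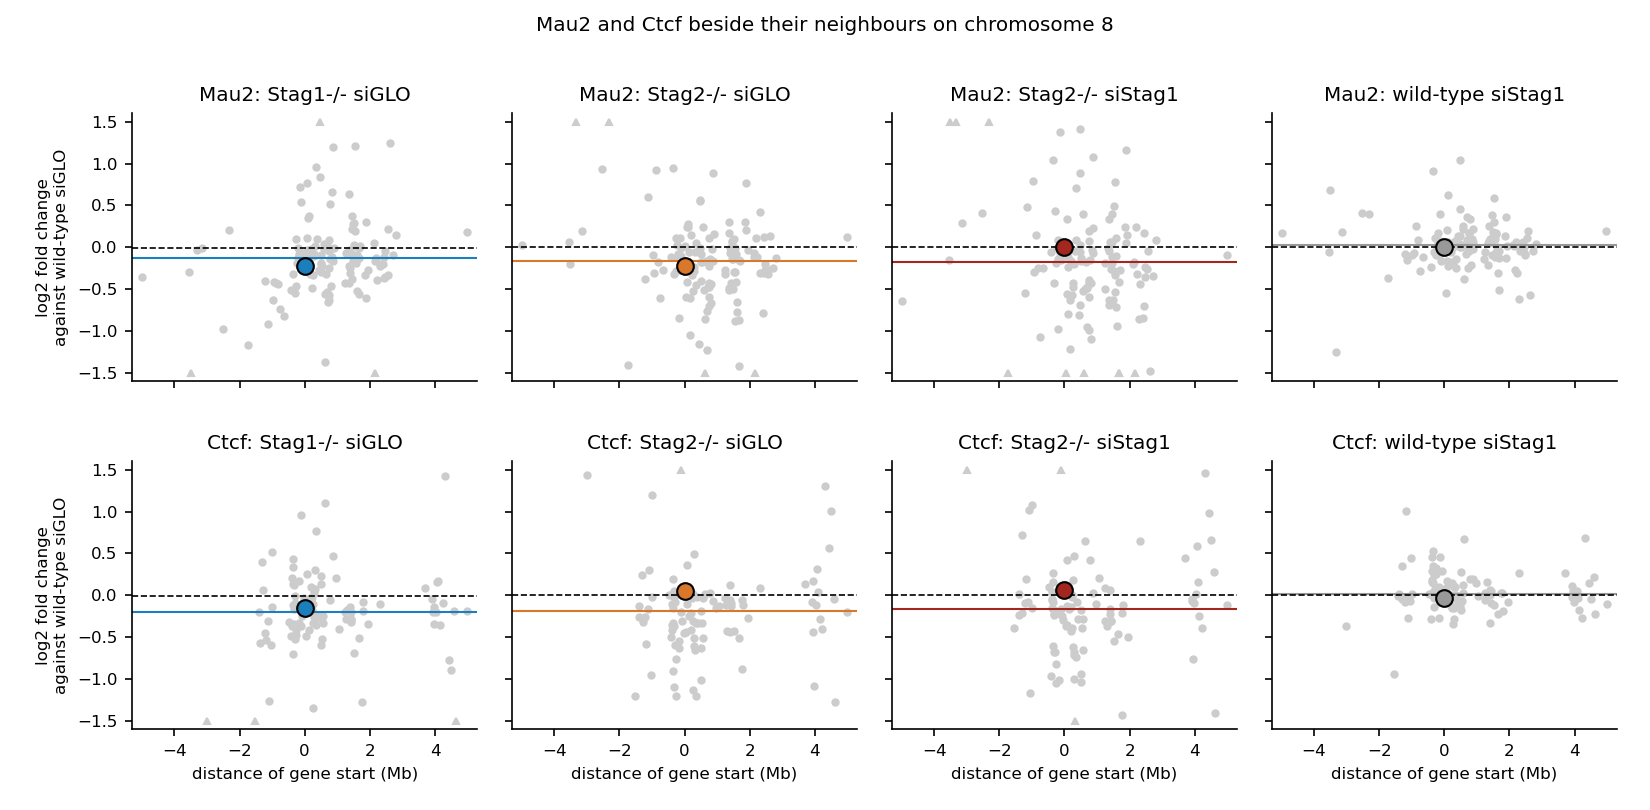
Log2 fold changes against wild-type siGLO (y axis) of Mau2 (upper row) and Ctcf (lower row) as large points, and of genes that start within 5 Mb (x axis, distance of gene starts in Mb) as grey points, with triangles for values beyond the axis. Coloured lines give the median of the neighbours (-0.13 to -0.20 in the 3 knockout conditions, left) and dashed lines that of all genes tested, and the wild-type siStag1 panels (right) show both near 0.

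Pds5b (chromosome 5, 150673739 to 150810690), one of the HEAT-repeat partners of WAPL, had 2275, 2282 and 2011 normalized counts in wild-type siGLO and 2573, 2571 and 2916 in Stag2-/- siStag1. The groups did not overlap, and the log2 fold change was 0.30 (SE 0.10, adjusted p = 0.0325). It was 0.11 in Stag1-/- siGLO, where the 3 libraries spread widely over 2030, 2720 and 2351, and 0.06 in Stag2-/- siGLO (2276, 2445 and 2122), and neither passed the test. The call in Stag2-/- siStag1 was lost without wild-type siGLO replicate 3 (adjusted p = 0.130) or Stag2-/- siStag1 replicate 3 (0.133).

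Its paralog Pds5a (chromosome 5, 65605721 to 65698273) did not pass the test in any comparison. Pds5a had 4847, 4453 and 4030 normalized counts in wild-type siGLO and 4878, 4151 and 4394 in Stag2-/- siStag1, a log2 fold change of 0.01 (95% confidence interval -0.19 to 0.21). Per kb of exon the paralogs were about equal in wild-type siGLO, with a ratio of Pds5a to Pds5b of 1.03 ± 0.047 (SD, n = 3). This level rests on the annotation, since mean counts of 4443 and 2189 were divided by merged exon lengths of 19335 and 9839 bp. In Stag2-/- siStag1 the ratios were 0.965, 0.822 and 0.767, all below the 1.08, 0.993 and 1.02 of wild-type siGLO.

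Wapal (chromosome 14, 34673928 to 34747983), named Wapl in the current annotation and coding for the factor that opens the ring, had 5456, 5472 and 4993 normalized counts in wild-type siGLO. It had 5222, 4419 and 4017 in Stag2-/- siGLO and 5266, 4212 and 4525 in Stag2-/- siStag1, so that in each of these groups 1 library lay within the range of wild-type siGLO and the other 2 below it. The log2 fold changes were -0.22 (SE 0.12, adjusted p = 0.198) and -0.19 (SE 0.12, adjusted p = 0.235), neither of which passed the test. In Stag2-/- siGLO it passed with the replicate number as a block, at an adjusted p of 0.0595 where 39.4% of all genes were called, and the 6 alternative fits gave 0.0595 to 0.235. Without Stag2-/- siGLO replicate 1, which had the highest count, the adjusted p was 0.0655 and the log2 fold change -0.33. Without Stag2-/- siStag1 replicate 1, that for Stag2-/- siStag1 was 0.0889.

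The release factor was also set beside the loader, since WAPL and NIPBL act against each other on the time cohesin stays on chromatin. Per kb of exon, Wapal stood to Nipbl as 2.37, 2.33 and 2.30 in wild-type siGLO and as 2.02, 1.53 and 1.65 in Stag2-/- siStag1. In Stag2-/- siGLO the ratios were 2.32, 1.82 and 1.90, of which 1 lay within the range of wild-type siGLO, and in Stag1-/- siGLO they were 2.33, 2.42 and 2.36. In wild-type siStag1 they were 2.17, 2.35 and 2.01, of which 2 lay below the range of wild-type siGLO. No test was run on the ratios.

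Promoter windows are shown for Mau2 and Pds5b because these genes passed the test across the 5 conditions and are in the RefSeq promoter table, in which 7 of the 10 genes were found. Each window is written 5′ to 3′ on the strand of the gene, in build GRCm38.p6, and stops at the annotated gene start. Capitals mark matches on either strand to GGGCGG (the SP1 GC box, read as CCGCCC on the other strand), which no other motif searched overlapped there.
Mau2 promoter, chr8:70042735-70042984, minus strand: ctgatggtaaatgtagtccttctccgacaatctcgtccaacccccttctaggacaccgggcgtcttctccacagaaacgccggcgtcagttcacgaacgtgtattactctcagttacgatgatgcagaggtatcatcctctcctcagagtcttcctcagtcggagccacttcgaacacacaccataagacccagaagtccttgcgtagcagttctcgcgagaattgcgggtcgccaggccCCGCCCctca
Pds5b promoter, chr5:150673577-150673738, plus strand: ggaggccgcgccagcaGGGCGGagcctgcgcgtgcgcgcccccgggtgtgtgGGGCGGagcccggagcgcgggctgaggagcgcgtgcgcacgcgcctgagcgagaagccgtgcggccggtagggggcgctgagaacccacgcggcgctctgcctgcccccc
The GC box began 10 bases before the RefSeq start of Mau2, and 234 and 198 bases before that of Pds5b. The 7 windows found for the 10 genes all held GGGCGG within 250 bases upstream, as did 32.7% of the 32851 windows in the table. The GC content of the 7 ran from 54.8% (Mau2) to 80.4% (Pds5a). The windows of the table were not matched to them for GC content, so no enrichment is shown. The other motifs searched were the CCAAT box, the cell cycle homology region TTTGAA and the E2F sites TTTCCCGC and TTTGGCGC, which 33.8%, 16.0%, 0.895% and 0.417% of all windows held. Of the 7 windows, CCAAT was in those of Smc1a, Wapal and Pds5b, TTTGAA in those of Pds5b and Ctcf, TTTGGCGC in that of Pds5a and TTTCCCGC in none. The CCAAT and TTTGAA of Pds5b began 66 and 32 bases before its RefSeq start, past the annotated gene start at which the printed sequence stops. A match is a string of letters and not a measured binding site.

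Esco2 (chromosome 14, 65819038 to 65833994), which acetylates SMC3 on newly replicated chromatin, showed the largest changes of the 10 genes. It had 2896, 3137 and 3116 normalized counts in wild-type siGLO. It had 1866, 2662 and 2736 in Stag1-/- siGLO, 2513, 2110 and 2257 in Stag2-/- siGLO, and 2136, 1978 and 1809 in Stag2-/- siStag1. Every library of the 3 knockout conditions was thus below every library of wild-type siGLO, whereas in wild-type siStag1 the counts of 2825, 2916 and 2835 overlapped it. The log2 fold changes were -0.33 (SE 0.12, adjusted p = 0.0721), -0.41 (SE 0.12, adjusted p = 0.0221) and -0.63 (SE 0.12, adjusted p = 0.000684) in the 3 knockout conditions, and -0.09 (95% confidence interval -0.34 to 0.16) in wild-type siStag1.

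The call in Stag2-/- siStag1 was kept in all 21 alternative fits, with adjusted p-values of 1.27e-05 to 0.00515, and that in Stag2-/- siGLO likewise, with 0.00285 to 0.0935. The call for Esco2 in Stag1-/- siGLO was not as steady. Replicate 1 was the lowest of that group, and without it the log2 fold change was -0.18 and the adjusted p 0.275. Without wild-type siGLO replicate 2 or 3 the adjusted p was 0.188 or 0.153, with no filter on low counts 0.103, and with only the libraries compared 0.113. Genes within 5 Mb of Esco2 (n = 86) had median log2 fold changes of 0.03, -0.05 and -0.05 in the 3 knockout conditions, and 17, 21 and 42 of them were called, 7, 15 and 25 as lower, beside the 20.0%, 28.3% and 43.9% of all genes called.

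Genes that act with Esco2 in cohesion were then compared by list. Of 11 genes of acetylation, protection and release, which include Esco1, Hdac8, the sororin gene Cdca5, the shugoshins, separase (Espl1) and mitotic kinases, 2 fell and 1 rose in Stag2-/- siStag1, where 43.9% of all genes were called. Counts were 1 lower and 1 higher in Stag2-/- siGLO, with 28.3% of all genes called, and 1 higher in Stag1-/- siGLO, with 20.0%. Sgol2, which shields centromeric cohesin, fell by 0.53 on the log2 scale (adjusted p = 0.00742), Sgol1 fell by 0.27 (0.0348), and Plk1, a kinase that helps to remove cohesin in prophase, rose by 0.34 (0.000975). In Stag2-/- siGLO Sgol2 fell by 0.42 (0.0445) and Plk1 rose by 0.29 (0.00773), and in Stag1-/- siGLO Plk1 alone passed, with 0.19 (0.0755). Esco1, the paralog of Esco2 that acts outside S phase, had log2 fold changes of -0.16, -0.20 and -0.14 in the 3 knockout conditions, none of which passed. The median of the list was -0.04, 0.02 and -0.11, beside -0.01, 0.01 and 0.01 for all genes.

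Among 10 genes of replication-coupled cohesion, such as the helicase Ddx11 and the clamp loader subunits Chtf18 and Dscc1, 0 passed in either single knockout with edgeR, where 20.0% and 28.3% of all genes were called. At an unadjusted p under 0.05 there were 4 in Stag1-/- siGLO and 0 in Stag2-/- siGLO, beside 4012 and 4956 of the 14508 genes, and DESeq2 called 3 and 0, beside 3179 and 4301. The 3 were Chtf18, Pcna and Wdhd1, at log2 fold changes of 0.21, -0.20 and -0.16 with edgeR and adjusted p-values of 0.112, 0.114 and 0.126. Chtf18 fell by 0.31 on the log2 scale (adjusted p = 0.00937) and Clspn rose by 0.18 (0.0873) in Stag2-/- siStag1, the 2 of the list called there, beside 43.9% of all genes. Their medians were -0.12, 0.06 and 0.0025 in Stag1-/- siGLO, Stag2-/- siGLO and Stag2-/- siStag1.

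Esco2 is itself made in S phase, so its values are given beside markers of the cell cycle. Of 15 S phase genes, 6 fell and 0 rose in Stag1-/- siGLO (median -0.18), 1 fell in Stag2-/- siGLO (median 0.01) and 4 fell in Stag2-/- siStag1 (median -0.16). Over all genes tested 9.93%, 14.4% and 21.3% were called as lower in these comparisons, and 10.1%, 13.9% and 22.6% as higher. Of 15 genes of G2 and M, 6 rose in Stag1-/- siGLO (median 0.19), 1 rose and 1 fell in Stag2-/- siGLO (median -0.0017), and 2 rose and 1 fell in Stag2-/- siStag1 (median 0.03). In wild-type siStag1 0 genes of either list were called, with medians of -0.03 for S phase and 0.12 for G2 and M. The G2 and M genes summed to 94000 to 98010 in wild-type siGLO and 103400 to 106500 in wild-type siStag1. Their sum was 108300 to 122000 in Stag1-/- siGLO, 93340 to 94410 in Stag2-/- siGLO and 97720 to 102100 in Stag2-/- siStag1. The summed level of the S phase genes was 80890 to 88090 in wild-type siGLO, 75260 to 82700 in Stag1-/- siGLO, 81940 to 86260 in Stag2-/- siGLO and 75180 to 83280 in Stag2-/- siStag1, and none was at 0. The S phase genes with the largest falls were Rrm2 in Stag1-/- siGLO (-0.40), and Cdc45 in Stag2-/- siGLO (-0.31) and in Stag2-/- siStag1 (-0.43). Esco2 was called as lower in Stag1-/- siGLO, Stag2-/- siGLO and Stag2-/- siStag1, beside 6, 1 and 4 of the 15 S phase genes. The part of the cell cycle in the fall of Esco2 was not tested.

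**Figure D4:**
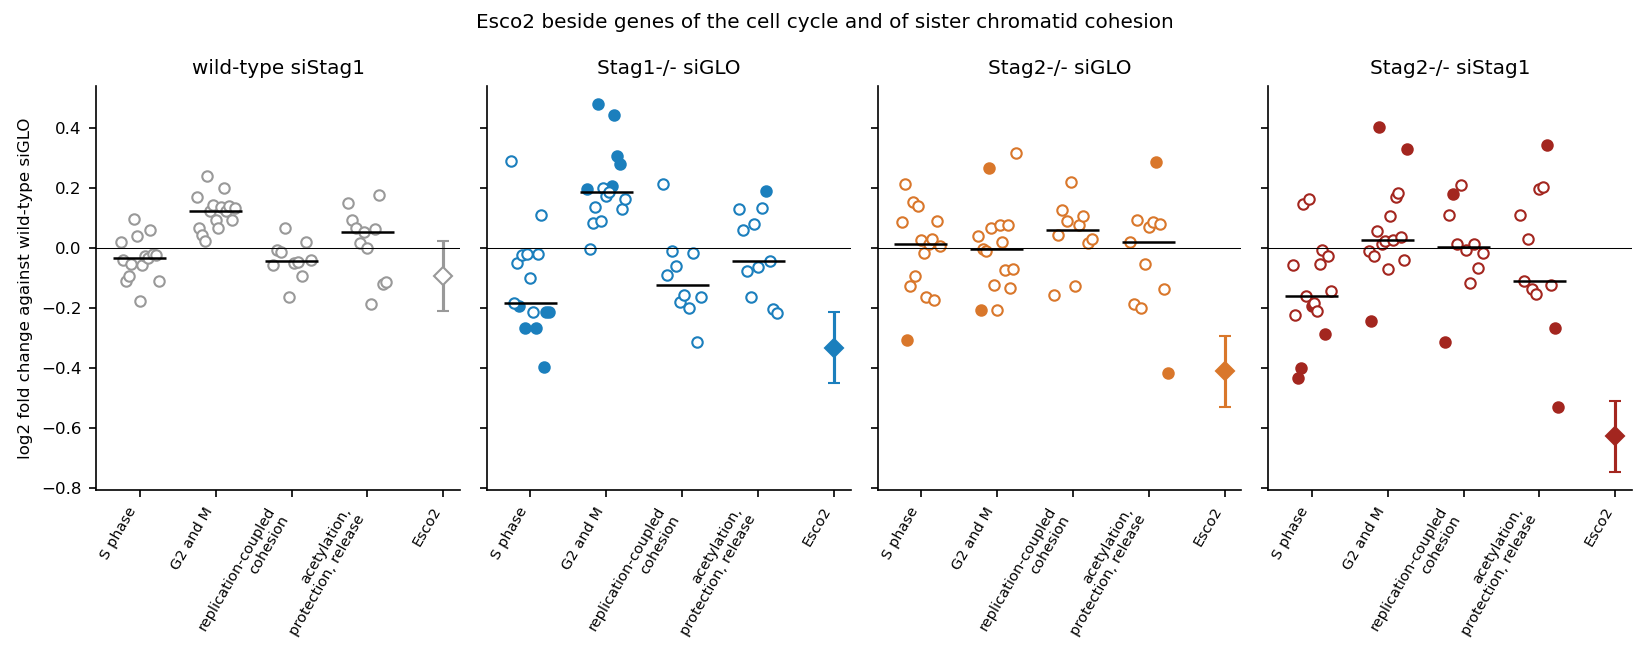
Log2 fold changes against wild-type siGLO (y axis) of the genes of 4 lists and of Esco2 (x axis) in 4 conditions, 1 panel each. Circles are genes, filled where the adjusted p is under 0.1, black lines are list medians and the diamond is Esco2 with its SE; Esco2, at -0.63, lies below every listed gene in Stag2-/- siStag1.

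Further lists hold relatives of the 10 genes. Of the meiotic cohesin genes Smc1b, Rec8, Rad21l and Stag3 and the CTCF paralog Ctcfl, 4 were high enough to test. Stag3 fell by 1.09 on the log2 scale in Stag2-/- siGLO (adjusted p = 0.000231), by 0.44 in Stag1-/- siGLO (0.0758) and by 0.85 in Stag2-/- siStag1 (0.000656), and Smc1b fell by 0.93 in Stag1-/- siGLO (0.0118) and by 0.78 in Stag2-/- siGLO (0.0244). Rec8 and Ctcfl rose in Stag2-/- siStag1, by 0.55 (0.0578) and by 1.74 (0.0138), the latter from a mean of 14.4 normalized counts in wild-type siGLO. Of 10 factors that work with CTCF at promoters and loops, 2 rose and 1 fell in Stag1-/- siGLO (median 0.18), where 10.1% of all genes were called as higher and 9.93% as lower. In the other knockout conditions 4 rose and 1 fell in Stag2-/- siGLO (median 0.25), beside 13.9% and 14.4% of all genes, and 6 rose and 1 fell in Stag2-/- siStag1 (median 0.31), beside 22.6% and 21.3%. In Stag2-/- siStag1 Top2b, a topoisomerase found at loop anchors, rose by 0.72 on the log2 scale (adjusted p = 0.00102), the zinc finger gene Patz1 by 0.40 (0.00259) and Maz by 0.27 (0.0147), and Zfp143 fell by 0.46 (0.00105). In the same libraries Ctcf itself had a log2 fold change of 0.06 (95% confidence interval -0.12 to 0.24).

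The remaining comparisons asked how the knockouts differ from each other and what siStag1 adds in Stag2-/- cells. Between Stag1-/- siGLO and Stag2-/- siGLO, edgeR called 0 of the 10 genes, with 25.7% of all genes called. At an unadjusted p under 0.05 there were 1 of the 10 and 4668 of all 14508 genes, and DESeq2 called 1 of the 10 and 3936 of all. That gene was Ctcf, at -0.21 on the log2 scale (adjusted p = 0.103, SE 0.086), with 3232, 3327 and 2876 normalized counts in the first group, all below the 3914, 3620 and 3382 of the second. With the replicate block Ctcf had an adjusted p of 0.0211 and Wapal, at a log2 fold change of 0.20, one of 0.0925, with 37.3% of all genes called. Over the 6 alternative fits the adjusted p was 0.0211 to 0.221 for Ctcf and 0.0925 to 0.344 for Wapal. The call for Ctcf was gained without Stag2-/- siGLO replicate 3 (0.0812) or Stag2-/- siStag1 replicate 1 (0.0829), and that for Wapal without Stag2-/- siGLO replicate 1 (0.0923). Esco2 differed by 0.08 (95% confidence interval -0.17 to 0.33) and passed without Stag1-/- siGLO replicate 1 (0.0962), at 0.24. For Mau2 the difference was -0.0020 (95% confidence interval -0.18 to 0.18).

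Within Stag2-/- cells, siStag1 against siGLO gave 0 of the 10 genes with edgeR, with 6.37% of all genes called. At an unadjusted p under 0.05 there were 3 of the 10 and 2423 of all 14508 genes, and DESeq2 called 1 of the 10 and 1210 of all. The 3 were Nipbl, Mau2 and Pds5b, at log2 fold changes of 0.25, 0.23 and 0.24 and adjusted p-values of 0.123, 0.161 and 0.247, and in each the 3 libraries with siStag1 were above the 3 with siGLO. With the replicate block, taken to pair libraries here (correlations of same-numbered libraries 0.304 to 0.767), Nipbl (adjusted p = 0.0260) and Mau2 (0.0666) passed, with 14.1% of all genes called. The pairing was not clean. Replicate 3 with siGLO and replicate 2 with siStag1 correlated at 0.476, and replicate 2 with siGLO and replicate 3 with siStag1 at 0.235. The other differently numbered pairs were negative. Over the 6 alternative fits the adjusted p was 0.0260 to 0.251 for Nipbl and 0.0666 to 0.299 for Mau2. Nipbl also passed without Stag1-/- siGLO replicate 2 (0.0840) or 3 (0.0849). Esco2 had 1974 ± 163 normalized counts with siStag1 and 2293 ± 204 with siGLO (SD, n = 3), a log2 fold change of -0.22 (95% confidence interval -0.47 to 0.04) that did not pass.

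The effect of siStag1 was not shown to differ between Stag2-/- and wild-type cells for any of the 10 genes. The knockdowns compared were unequal, since Stag1 stood at 32.3% of wild-type siGLO in Stag2-/- siStag1 (667.3, 781.2 and 629.0 normalized counts) and at 20.6% in wild-type siStag1, and the 2 groups did not overlap. The siStag1 effect on Stag1 itself differed by 0.75 on the log2 scale, with an adjusted p of 0.254 by edgeR, 0.0253 with the replicate block and 0.0536 by DESeq2. In the test of that difference edgeR called 0 of the 10 genes and 0.159% of all genes, with 0 of the 10 and 842 of all genes at an unadjusted p under 0.05, and DESeq2 called 0 of 10. The largest differences were for Pds5b, at 0.29 (95% confidence interval -0.02 to 0.59), and for Mau2, at 0.23 (-0.02 to 0.48). Rad21 had the lowest unadjusted p of the 10, at a difference of 0.20 (-0.0018 to 0.40), with an unadjusted p of 0.0518 by edgeR (adjusted p = 0.868) and of 0.0226 by DESeq2 (adjusted p = 0.627). For Esco2 the difference was -0.12 (-0.48 to 0.23), so a smaller or larger effect of the knockdown in Stag2-/- cells is not shown with 3 libraries per group.

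Per kb of exon, which allows levels of different genes to be set side by side, Rad21 was the most abundant of the 10 genes in wild-type siGLO at 1833 ± 85.1 (SD, n = 3) normalized counts per kb. Smc3 followed at 1238 ± 56.0, then Wapal at 801 ± 41.1, Ctcf at 722 ± 46.5, Smc1a at 638 ± 2.79, Esco2 at 459 ± 20.0, Nipbl at 344 ± 13.8, Pds5a at 230 ± 21.1, Pds5b at 223 ± 15.7 and Mau2 at 156 ± 2.36. Pds5a and Pds5b did not differ beyond their spread, and the other neighbours in this order were separated by more than the SD of either. Rad21 lay above 97.4% of all genes tested on this scale and Mau2 above 64.1%. In Stag2-/- siStag1 the order of Esco2 and Nipbl was exchanged, with 297 ± 24.6 against 408 ± 12.3. Wapal and Ctcf were also exchanged there, at 705 ± 81.8 and 753 ± 58.9, but overlapped within their spread. Pds5a and Pds5b were exchanged as well, at 231 ± 19.1 and 273 ± 20.2, a gap larger than the SD of either. The single knockouts also showed exchanges. In Stag2-/- siGLO Wapal was below Ctcf, at 688 ± 92.7 and 749 ± 54.8, and Esco2 and Nipbl were about level, at 345 ± 30.7 and 342 ± 23.9. In Stag1-/- siGLO Ctcf was below Smc1a, at 647 ± 49.0 and 693 ± 47.4, and Pds5a just below Pds5b, at 239 ± 14.5 and 241 ± 35.1. The exon length is that of all transcripts of a gene merged, so the scale is approximate. The SDs given here do not include the error of that length.

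**Figure D5:**
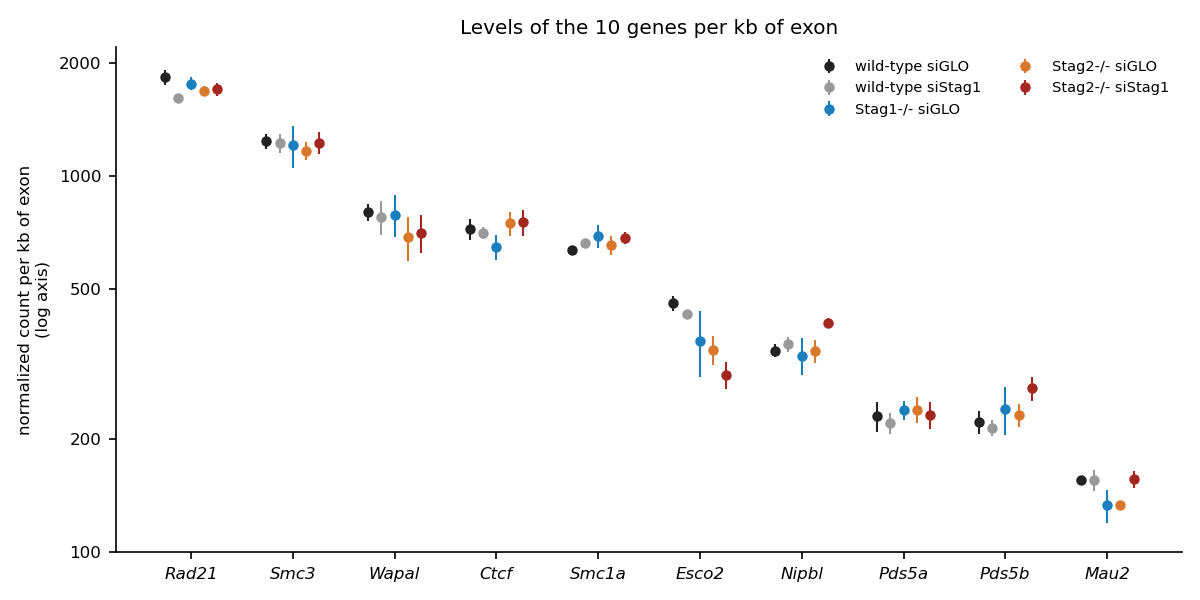
Normalized counts per kb of exon (y axis, log scale) of the 10 genes (x axis, ordered by wild-type siGLO) in the 5 conditions, as the mean of 3 libraries with the SD as bars. Levels run from 1833 for Rad21 to 156 for Mau2 in wild-type siGLO, and Esco2 is above Nipbl in wild-type siGLO and below it in Stag2-/- siStag1.

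The 3 genes whose condition means varied most were Esco2, Pds5b and Mau2, with standard deviations of 0.25, 0.13 and 0.12 on the log2 scale. Over the 15 libraries, the genes most like Esco2 by Pearson's correlation of log2-scaled library-normalized counts were Slc25a36 (r = 0.960), Rab1 (0.956) and Naa16 (0.951). Those most like Pds5b were Pdzd8 (0.941), Rps6kb1 (0.901) and Zfp191 (0.897). Those most like Mau2 were Rimbp3 (0.866), Plat (0.858) and Klf17 (0.846), of which Klf17 had a mean of 15.1 normalized counts. These 15 libraries share conditions, clones and replicate numbers, and the correlations are given as a description.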

How the data were processed

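Per the labels and the study's methods, the authors aligned paired-end reads of poly(A)-selected libraries to mm10 with STAR and tested with DESeq2. The deposited files hold raw counts per gene symbol, 1 library each; the counting tool, annotation and strand setting are not given in the sources used here. 4 summary lines, equal to 19.8% to 23.4% of all counts, were left out. Totals were 14982560 to 19070126 counts per library, with a median of 17700059.

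Here, counts of all 15 libraries were fitted with edgeR 4.0.16 in R 4.3.3 (TMM scaling, filterByExpr with a minimum of 10 counts and a total of 15, quasi-likelihood F test, 1 coefficient per condition). Of 23412 genes 14508 were tested. P-values were two-sided and adjusted by Benjamini-Hochberg over all of them, with calls under 0.1, the threshold of the study. Normalized counts are scaled to 17409359. Alternatives were DESeq2 1.42.0, DESeq2-type size factors, library size alone, no filter, only the libraries compared, a replicate block, and each library left out. The script was tested on simulated data.

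Gene positions and exon lengths are from GENCODE M21 on GRCm38 (mm10), matched by symbol for 21737 genes and by an older symbol for 1274, with 401 unmatched. Exons of the 10 genes share 150-base stretches with 1 other gene, Gm5914 (143 of the 4999 of Ctcf).

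The members and lists were chosen with earlier results of these data known. Named genes are, by rule, the 10 members, Stag1 and Stag2, listed genes past the threshold or at the top 2 by size, and the 3 genes most correlated with each of the 3 members that varied most. Outside it, genes are named to say what a list or marker set holds or what overlaps a member, and values of Esco1, Pcna, Wdhd1 and the cell type markers were chosen for print after they were seen. The replicate numbers in the labels were taken to pair libraries where every same-numbered pair correlated over 0.1 in deviations from its condition mean. This held for each pairwise comparison (lowest correlation 0.131) but that of Stag2-/- siStag1 with wild-type siGLO (lowest 0.0466). No 2 libraries of a condition agreed within counting noise, with a chi-square per degree of freedom of at least 4.52.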

Additional observations from a re-analysis of the deposited data

How the results depend on the processing

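The direction of Esco2 was kept in all fits against wild-type siGLO, and its calls in both Stag2-/- conditions were kept in all of them. Calls of Mau2, Nipbl and Pds5b lie near the threshold and rest on 3 libraries per group, and the cause of each change listed here was not tested. Without a filter on low counts, 0 of the 10 genes were called in Stag1-/- siGLO, 1 in Stag2-/- siGLO and 2 in the test over the 5 conditions. All-gene counts without that filter were 2654 for Stag1-/- siGLO and 3832 for Stag2-/- siGLO, of the 19494 genes with at least 1 count. With only the libraries compared, 0 of the 10 and 2832 of all genes were called in Stag1-/- siGLO. DESeq2 and library size alone each called 1 of the 10 within Stag2-/- cells and 1 between the knockouts. Over the 5 conditions library size alone added Ctcf (adjusted p = 0.0586).

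With the replicate block, 2 of the 10 were called within Stag2-/- cells and 2 between the knockouts, and all-gene counts were 4443 (main 2907) for Stag1-/- siGLO, 236 (main 36) for wild-type siStag1, 2049 (main 924) within Stag2-/- cells and 138 (main 23) for the difference in siStag1 effect. In Stag2-/- siStag1 against wild-type siGLO, where the numbers were not shown to pair libraries, the block added Wapal (adjusted p = 0.0940), with 4 of the 10 and 7792 of all 14508 genes called. Over the 5 conditions the block called 6 of the 10 and 9591 of all, adding Ctcf (adjusted p = 0.0415) and Wapal (0.0998). It changed no other call but those given in the report. With only the libraries compared the counts were 126 for wild-type siStag1, 224 within Stag2-/- cells, 2406 between the knockouts and 14 for the difference in siStag1 effect, and DESeq2 gave 131 for wild-type siStag1 and 102 for that difference.

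Leaving out 1 library at a time, members called ran from 0 to 2 for Stag1-/- siGLO, 1 to 2 for Stag2-/- siGLO, 1 to 4 for Stag2-/- siStag1, 0 to 1 within Stag2-/- cells, 0 to 1 between the knockouts and 2 to 4 over the 5 conditions. Counts of all genes ran from 1915 to 3259 for Stag1-/- siGLO, 2524 to 4564 for Stag2-/- siGLO, 1 to 57 for wild-type siStag1, 416 to 1484 within Stag2-/- cells and 13 to 76 for the difference in siStag1 effect.

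Log2 fold changes of the 10 genes changed sign in 14 of 420 fits under other settings and in 64 of 1050 with 1 library left out, and 0 of these had passed the test. Among values given in the report, library size alone gave 0.0041 for Smc3 in Stag2-/- siStag1, and no filter gave -0.0075 for Mau2 and -0.0038 for Pds5a there. Between the knockouts Mau2 was at 0.0015 with DESeq2, 0.0017 with its size factors and 0.012 with no filter. With 1 library left out, Nipbl ran from -0.13 to 0.032 in Stag1-/- siGLO and from -0.059 to 0.042 in Stag2-/- siGLO, and Ctcf from -0.0046 to 0.10 in the latter. In Stag2-/- siStag1 Smc3 ran from -0.069 to 0.023, Mau2 from -0.016 to 0.051, Pds5a from -0.058 to 0.075 and Ctcf from -0.0038 to 0.11. Between the knockouts Esco2 ran from -0.018 to 0.24 and Mau2 from -0.087 to 0.050.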
